A study of Mus musculus with 24 samples.

Results

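The thioredoxin and glutaredoxin systems of mouse liver were followed through 10 genes: Txn1, Txn2, Txnrd1, Txnrd2, Txnrd3, Txnip, Glrx, Glrx2, Glrx3 and Glrx5. They were chosen by symbol, as the cytosolic and mitochondrial members of the family, among the 24421 genes of the deposited count table. All 10 were in the table, and all 10 passed the filter on low counts that left 13833 genes for testing. RNA came from the medial liver lobe of C57BL/6 mice. The 4 groups were mice 1 h after vehicle with 0.1% ethanol, 1 h after MitoCDNB at 5 mg/kg, 4 h after vehicle and 4 h after MitoCDNB, with 6 libraries in each. The labels give no age, sex or genotype beyond the strain. MitoCDNB is a chlorodinitrobenzene carried into mitochondria by a triphenylphosphonium group, made to deplete mitochondrial glutathione and to inhibit mitochondrial thioredoxin reductase.

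Thioredoxins are small proteins that reduce disulfide bonds in peroxiredoxins, ribonucleotide reductase and other clients through a pair of cysteines. Thioredoxin reductases, which are selenoproteins, return them to the reduced form with electrons from NADPH. Glutaredoxins share the thioredoxin fold but are reduced by glutathione, and some of them carry iron-sulfur clusters in place of acting as reductants. In liver these systems stand beside glutathione as the main thiol reductants of cytosol and mitochondria.

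Sequencing gave 25.1 to 37.2 M counts a library. Levels are given in CPM, counts per M counts of the library after TMM scaling (the trimmed mean of M-values). The 10 hepatocyte markers were all detected and summed to between 51500 and 77400 CPM over the 24 libraries. On the second principal component 2 libraries of 4 h lay apart, vehicle replicate 1 at -28.7 and MitoCDNB replicate 2 at -37.2. The neuronal gene Snap25 had 12 to 39 counts in the 1 h libraries of replicates 4 to 6, in vehicle and MitoCDNB alike, against 0 in replicates 1 to 3. Within 1 h, the summed neutrophil markers (7 of 8 in the table) were 4.65 to 9.23 CPM in vehicle and 10.6 to 15.9 CPM in MitoCDNB. At 4 h they were 1.77 to 9.54 and 1.88 to 3.79 CPM. Of the 5 tested, 0 were called at either time, but 2, S100a8 and S100a9, were called lower by edgeR for the 4 h effect minus the 1 h effect. The 8 cholangiocyte markers summed to 20.8 to 29.3 CPM in vehicle and 24.5 to 56.4 CPM in MitoCDNB at 1 h, and 2 of them, Krt23 and Spp1, were called higher by edgeR. At 1 h, 1 of 10 endothelial markers (Lyve1) and 1 of 4 tested lymphocyte markers (Gzma) were also called higher. At 4 h, 1 of 10 hepatocyte markers (Cps1) was called higher. Over all tested genes edgeR called 6.57% at 1 h and 0.824% at 4 h, in either direction. For the 4 h effect minus the 1 h effect, Krt23 (1 of 8 tested) and Gzma (1 of 4) were called lower. So were the endothelial markers Kdr and Clec4g (2 of 10), while Cps1 (1 of 10) was called higher. Over all tested genes the share called for this difference was 4.07%. The part of these cell types in the results was not tested. In whole tissue, fewer cells of a type and less RNA per cell cannot be told apart. The 4 h libraries have numbers 1 to 12 and the 1 h libraries 13 to 24, so time and library number cannot be told apart.

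The first comparison asked whether MitoCDNB altered the RNA of its own target system. At 1 h, 0 of the 10 genes passed edgeR's quasi-likelihood test at a Benjamini-Hochberg adjusted p under 0.05, while 6.57% of all genes did. An unadjusted p under 0.05 was found for 0 of the 10 and for 2443 of all 13833 tested genes. DESeq2 and limma-voom also called 0 of 10 at 1 h. At 4 h, 1 of the 10 passed, Txnrd1, which was lower, beside 0.824% of all tested genes. With a second gene, Glrx, 2 of the 10 had an unadjusted p under 0.05 at 4 h, beside 1981 of all 13833 tested genes. The groups did not overlap for 1 of the 10 genes, again Txnrd1. How many of all genes showed no overlap was not counted, so this describes Txnrd1 only. The difference between the effects at 4 h and 1 h was called for 0 of 10 by edgeR and by DESeq2 and for 1 of 10 by limma-voom (Glrx), with an unadjusted p under 0.05 for 2 in edgeR. Over all genes edgeR called 4.07% for that difference, and 2343 had an unadjusted p under 0.05. Both time points have their own vehicle group, but the difference and the vehicle comparison reuse these same libraries. Between the vehicle groups, 4 h against 1 h, edgeR called 0 of 10, beside 5.44% of all genes. It found 2 at an unadjusted p under 0.05 (Txnrd2 and Glrx), beside 2712 of all genes. DESeq2 and limma-voom called 0 of 10 there.

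The sizes of the differences were small for most members. The median absolute log2 fold change of the 10 genes was 0.07 at 1 h, beside 0.12 over all tested genes. At 4 h it was 0.11, beside 0.11 over all genes. A 95% interval within 1.2-fold of no difference was found for 7 of the 10 genes at 1 h and for 4 at 4 h. The widest intervals belonged to Txnip and to Txnrd3, whose mean count of 142 per library was the lowest of the family.

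**Figure D1:**
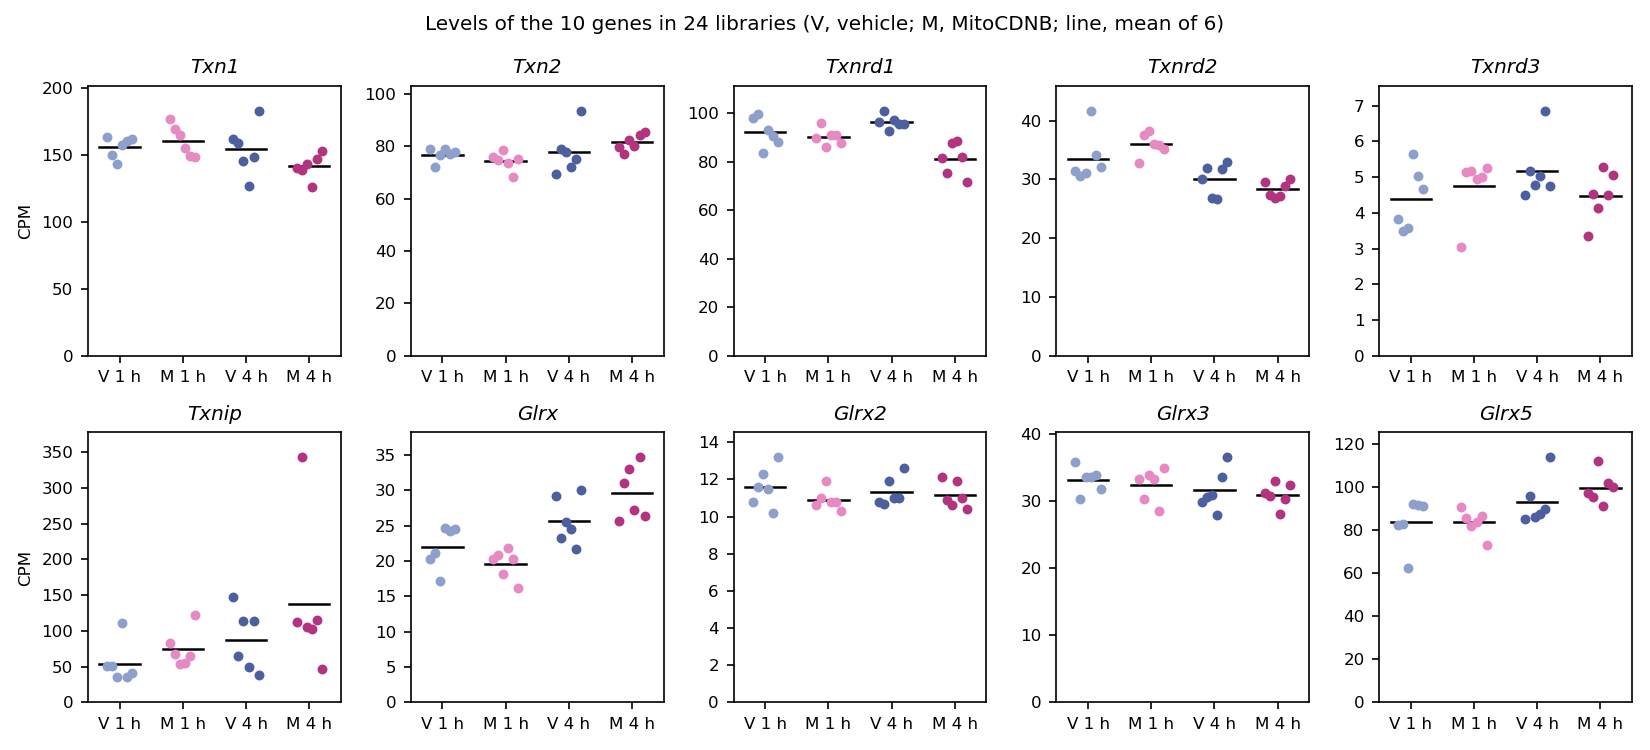
Level of each of the 10 genes (y axis, CPM, starting at 0) in the 4 groups (x axis, V for vehicle and M for MitoCDNB), with a point per library and a line at the mean of 6. The vehicle and MitoCDNB points of Txnrd1 at 4 h do not overlap (92.7 to 101 and 71.4 to 88.6 CPM), and Txnip spans 34.9 to 343 CPM.

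**Figure D2:**
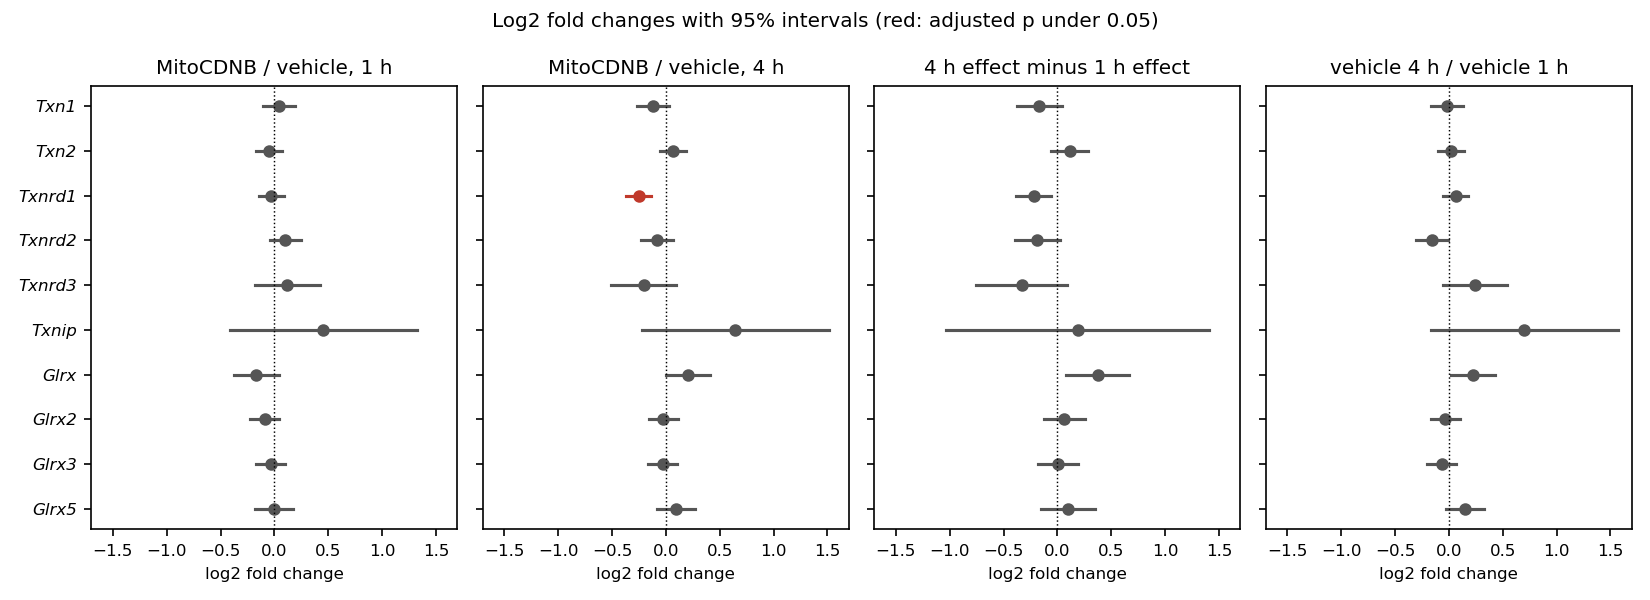
Log2 fold change (x axis) of each gene (y axis) in 4 comparisons, a panel each, with bars for the 95% interval of the edgeR fit. Txnrd1 at 4 h is the only point in red, for an adjusted p under 0.05, and the bars of Txnip are the longest.

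The thioredoxins came first. Txn1 (chr4:57943373-57956411, minus strand, GRCm38), the cytosolic and nuclear thioredoxin, was per kilobase the most abundant of the 10 genes. At 1 h its level was lowest at 143, in the median 158 and highest at 163 CPM in vehicle, and 148, 160 and 177 CPM in MitoCDNB. At 4 h it was 127, 153 and 183 CPM in vehicle and 126, 141 and 153 CPM in MitoCDNB. The ranges overlapped at both times, although all 6 MitoCDNB libraries of 4 h lay below the vehicle mean of 153.9 CPM. On the log2 scale the difference from vehicle was 0.05 (95% interval -0.10 to 0.19) at 1 h and -0.12 (-0.27 to 0.03) at 4 h. The adjusted p in edgeR was 0.837 and 0.466.

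Txn2 (chr15:77915047-77929006, minus strand), the mitochondrial thioredoxin, had lowest, median and highest levels of 72.1, 77.3 and 78.8 CPM in vehicle and 68.4, 75.0 and 78.5 CPM in MitoCDNB at 1 h. At 4 h these were 69.3, 76.4 and 93.6 CPM in vehicle and 77.2, 81.2 and 85.4 CPM in MitoCDNB. The groups overlapped at both times, and the MitoCDNB range of 4 h lay inside the vehicle range. MitoCDNB against vehicle gave a log2 fold change of -0.05 (-0.17 to 0.07) at 1 h and 0.07 (-0.05 to 0.19) at 4 h, with an adjusted p in edgeR of 0.788 and 0.664. For the thioredoxin of the compartment that MitoCDNB enters, the intervals reached -0.17 at 1 h and 0.19 at 4 h at their farther ends, on the log2 scale.

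Among the reductases, Txnrd1 (chr10:82833951-82897712, plus strand) codes for the cytosolic enzyme and is a textbook target of the transcription factor NRF2, which binds antioxidant response elements. RefSeq lists 3 start sites for it on GRCm38.p6. Since Txnrd1 was the member that changed, the 250 bases before its second start site are shown, which is the site of the 3 with a match to the antioxidant response element core TGACNNNGC on either strand, in capitals. The interval is chr10:82858956-82859205, and the match begins 92 bases before the start.

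Txnrd1 start site 2: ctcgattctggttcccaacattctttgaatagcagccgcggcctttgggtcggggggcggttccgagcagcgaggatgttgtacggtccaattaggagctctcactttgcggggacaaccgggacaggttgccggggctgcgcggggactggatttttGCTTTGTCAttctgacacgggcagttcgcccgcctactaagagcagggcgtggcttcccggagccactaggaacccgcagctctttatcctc

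This core was found in 10.2% of the 32851 RefSeq promoter windows of 250 bases, and it overlapped none of the other motifs searched in this window. Txnrd1 RNA fell 4 h after MitoCDNB. Its level in vehicle at 4 h was lowest at 92.7, in the median 95.9 and highest at 101 CPM. In MitoCDNB at 4 h it was 71.4, 81.7 and 88.6 CPM. Every MitoCDNB library of 4 h was below every vehicle library of 4 h, and also below the vehicle mean of 1 h. The mean went from 96.4 ± 2.85 to 81.0 ± 6.78 CPM (SD, n = 6). The log2 fold change was -0.25 with an SE of 0.06 (95% interval -0.37 to -0.14), a fold of 0.840 (0.775 to 0.911), with an adjusted p of 0.0307 in edgeR. By unadjusted p it ranked at place 69 of the 13833 genes.

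At 1 h the same gene differed little. Its lowest, median and highest levels were 83.4, 91.9 and 99.6 CPM in vehicle and 86.1, 90.2 and 96.0 CPM in MitoCDNB. The MitoCDNB libraries of 1 h all lay inside the vehicle range, and the log2 fold change was -0.03 (-0.15 to 0.08; adjusted p in edgeR 0.864). The effect at 4 h minus that at 1 h was -0.22 (-0.38 to -0.06), which did not pass over all genes (unadjusted p 0.0107, adjusted p 0.134 in edgeR). A change confined to 4 h was thus not shown. Vehicle at 4 h against vehicle at 1 h gave a log2 fold change of 0.07 (adjusted p 0.580 in edgeR).

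The call of Txnrd1 at 4 h was near the threshold. The alternatives reuse the same libraries. Since the groups did not overlap, leaving out 1 library could hardly reverse the direction. Over 9 other fits and 12 omissions of a single library the log2 fold change ran from -0.28 to -0.22. It was called in 6 of the 9 fits, including DESeq2 (adjusted p 0.00142) and limma-voom (adjusted p 0.0316). The adjusted p in edgeR was 0.0530 without the filter on low counts, 0.145 in a fit of the 4 h groups alone and 0.0571 without the 2 libraries that lay apart. It was called in 6 of the 12 single omissions. The call was lost without vehicle replicate 2 (adjusted p 0.0717), 4 (0.0507) or 5 (0.0531), and without MitoCDNB replicate 2 (0.0704), 5 (0.0572) or 6 (0.0595), all in edgeR. At 4 h the endothelial markers Kdr, Lyve1, Clec4g and Oit3 were called, 3 lower and 1 higher of 10 tested, beside 0.824% of all tested genes. The summed level of all 10 was 270 to 316 CPM in vehicle and 262 to 310 CPM in MitoCDNB, and none of the 10 was at 0 in all libraries of a group. Their part in the result of Txnrd1 was not tested.

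**Figure D3:**
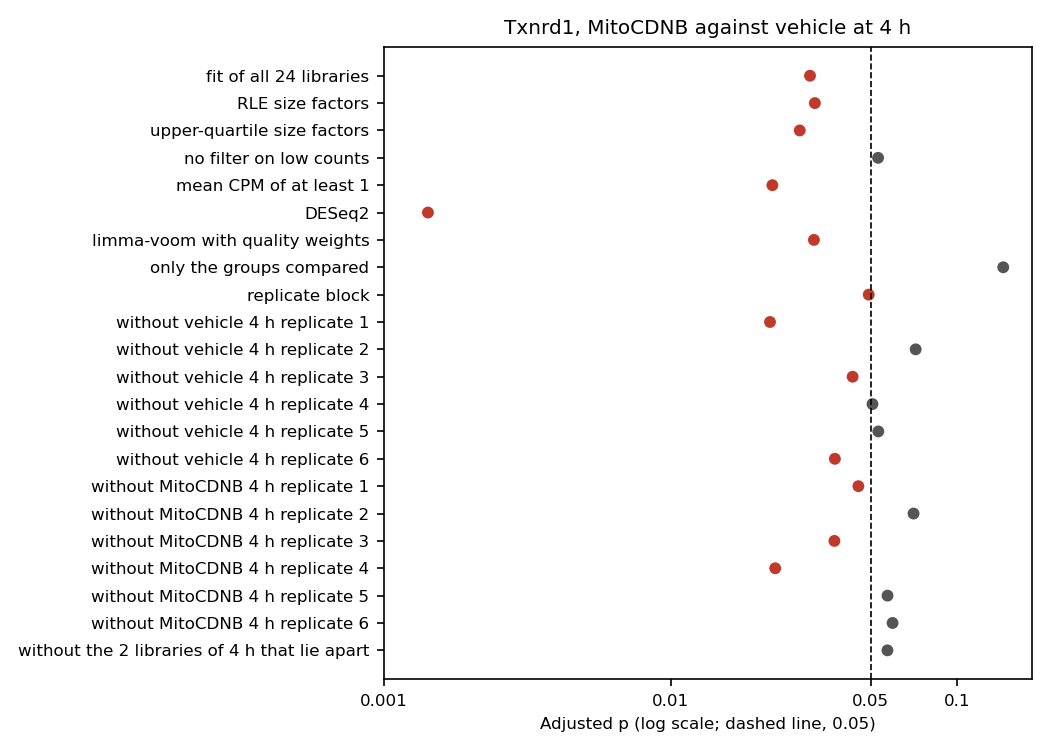
Adjusted p of Txnrd1, MitoCDNB against vehicle at 4 h (x axis, log scale), in the fit of all 24 libraries and in each alternative (y axis), with a dashed line at 0.05. The points lie between 0.00142 for DESeq2 and 0.145 for the fit of the compared groups alone, on both sides of the line.

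The 3 genes whose log2 CPM followed Txnrd1 most closely over the 24 libraries, of the 11911 genes whose mean reached 1 CPM, were Cgnl1 (Pearson r 0.754, Spearman rho 0.713), Akr1c14 (0.753 and 0.696) and AW549542 (0.730 and 0.715). They were picked for this likeness over libraries that include the lower Txnrd1 levels of 4 h, so their own values at 4 h are given as a description, with no test. Without the 2 libraries farthest from the median of Txnrd1, r was 0.559, 0.621 and 0.603. Akr1c14, an aldo-keto reductase that acts on steroids, stood at 277.9 ± 50.2 CPM in vehicle and 179.6 ± 32.7 CPM in MitoCDNB at 4 h (SD, n = 6). All 6 MitoCDNB libraries of 4 h were below the vehicle mean, although vehicle replicate 1 (197 CPM) lay within the MitoCDNB range. The means in vehicle and MitoCDNB at 4 h were 73.5 and 59.8 CPM for Cgnl1 and 6.12 and 4.52 CPM for AW549542.

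Txnrd2 (chr16:18426384-18479073, plus strand) codes for the mitochondrial reductase, the enzyme that MitoCDNB was designed to reach. At 1 h its lowest, median and highest levels were 30.6, 31.7 and 41.7 CPM in vehicle and 32.7, 35.9 and 38.3 CPM in MitoCDNB. At 4 h they were 26.6, 30.9 and 33.0 CPM in vehicle and 26.9, 28.2 and 30.1 CPM in MitoCDNB. The groups overlapped at both times. MitoCDNB against vehicle gave a log2 fold change of 0.10 (-0.05 to 0.25) at 1 h and -0.08 (-0.23 to 0.06) at 4 h, with an adjusted p in edgeR of 0.529 and 0.660. At 1 h it was 0.17 without vehicle replicate 4, the library at 41.7 CPM, 0.22 within replicates 1 to 3 and -0.01 within replicates 4 to 6, none of them called. In vehicle, all 6 libraries of 4 h were below the mean of 1 h, with a log2 fold change of -0.16 (-0.30 to -0.01) that did not pass (unadjusted p 0.0368, adjusted p 0.216 in edgeR).

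Txnrd3 (chr6:89643988-89675529, plus strand), the thioredoxin-glutathione reductase known chiefly from testis, was the scarcest member. Its lowest, median and highest levels were 3.48, 4.25 and 5.65 CPM in vehicle and 3.04, 5.07 and 5.26 CPM in MitoCDNB at 1 h. At 4 h they were 4.49, 4.91 and 6.86 CPM in vehicle and 3.34, 4.52 and 5.28 CPM in MitoCDNB. The groups overlapped at both times, and the fewest counts in a library were 85. Against vehicle its log2 fold change was 0.12 (-0.18 to 0.42) at 1 h and -0.21 (-0.51 to 0.09) at 4 h, with an adjusted p in edgeR of 0.771 and 0.562. The intervals reached past 1.2-fold at both times.

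Txnip (chr3:96557957-96561883, plus strand) codes for thioredoxin-interacting protein, an alpha-arrestin that binds reduced thioredoxin and restrains glucose uptake. Its gene is a known target of the glucose-sensing factors MondoA and ChREBP, which bind the carbohydrate response element. The 250 bases before its RefSeq start (chr3:96557707-96557956, GRCm38.p6) are shown because this was the member of the family with such a match, in capitals, beginning 85 bases before the start.

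Txnip start site 1: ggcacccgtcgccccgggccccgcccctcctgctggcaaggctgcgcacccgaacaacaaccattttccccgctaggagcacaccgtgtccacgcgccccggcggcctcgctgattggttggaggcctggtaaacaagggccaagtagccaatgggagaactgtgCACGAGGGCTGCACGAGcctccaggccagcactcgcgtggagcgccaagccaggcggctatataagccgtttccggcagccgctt

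The pattern searched was the motif known as the carbohydrate response element, a pair of E-box-like half-sites (CACGNG and CNCGNG) 5 bases apart, on either strand. It was in 92 of the 32851 windows, 0.280%. The windows of the other 9 members held neither this pattern nor, outside Txnrd1, the antioxidant response element core, which says only that these letters are not in those 250 bases.

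Txnip was the most variable of the 10 genes between mice of the same group. At 1 h its lowest, median and highest levels were 34.9, 46.0 and 111 CPM in vehicle and 53.7, 65.7 and 122 CPM in MitoCDNB. At 4 h they were 38.3, 89.5 and 147 CPM in vehicle and 47.2, 109 and 343 CPM in MitoCDNB. At 1 h the groups overlapped through vehicle replicate 4 (111 CPM), since the other 5 vehicle libraries, up to 51.5 CPM, were below every MitoCDNB library. At 4 h low and high libraries were found in both groups, which overlapped widely. The highest and lowest of the 24 libraries differed 9.81-fold, against 1.30-fold to 2.26-fold for the other 9 members. Its biological coefficient of variation was 0.488, above that of 97.6% of tested genes, whose median was 0.140.

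The mean of Txnip was higher in MitoCDNB at both times, by less than the test could call. At 1 h it went from 54.1 ± 28.8 to 74.2 ± 25.6 CPM (SD, n = 6), a log2 fold change of 0.45 (-0.41 to 1.32; adjusted p in edgeR 0.669). Without vehicle replicate 4 that value was 0.79, and without MitoCDNB replicate 6 it was 0.26, and no single omission gave a call. At 4 h it went from 87.9 ± 43.2 to 137.5 ± 104 CPM, a log2 fold change of 0.65 (-0.22 to 1.51; adjusted p in edgeR 0.526). At each time 5 of 6 MitoCDNB libraries were above the vehicle mean. The libraries highest in Txnip at 4 h, vehicle replicate 1 (147 CPM) and MitoCDNB replicate 2 (343 CPM), were the same 2 that lay apart on the second principal component. Without both, the log2 fold change at 4 h was 0.34 (adjusted p 0.744), and without MitoCDNB replicate 2 alone it was 0.13, both in edgeR. In vehicle, 4 h against 1 h gave 0.70 (-0.17 to 1.57; adjusted p in edgeR 0.383).

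The locus of Txnip also carries Gm15441 (chr3:96555765-96566801, minus strand), a long noncoding gene that runs antisense across it. The pair shares 606 exonic bases, 21.4% of those of Txnip. Gm15441 ranged from 13.1 to 133 CPM, 10.2-fold, and followed Txnip closely over the 24 libraries. With each group centred on its mean, Pearson's r of log2 CPM was 0.991 and Spearman's rho 0.985. The permutation p was 1e-05 for each, the smallest that 100000 permutations can give. Gm15441 was chosen after its values were seen, so this p is a description only. Without the 2 libraries farthest from the median, r was 0.992. Gm15441 CPM divided by Txnip CPM stayed between 0.321 and 0.429. The library kit's name does not mark strand and the counting rule is not stated in the labels. Without strand, reads of the shared exonic bases cannot be assigned to either gene, so how much of this likeness comes from shared reads was not tested. Gm15441 passed no comparison either, with log2 fold changes of 0.48 at 1 h and 0.68 at 4 h (adjusted p in edgeR 0.635 and 0.480).

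**Figure D4:**
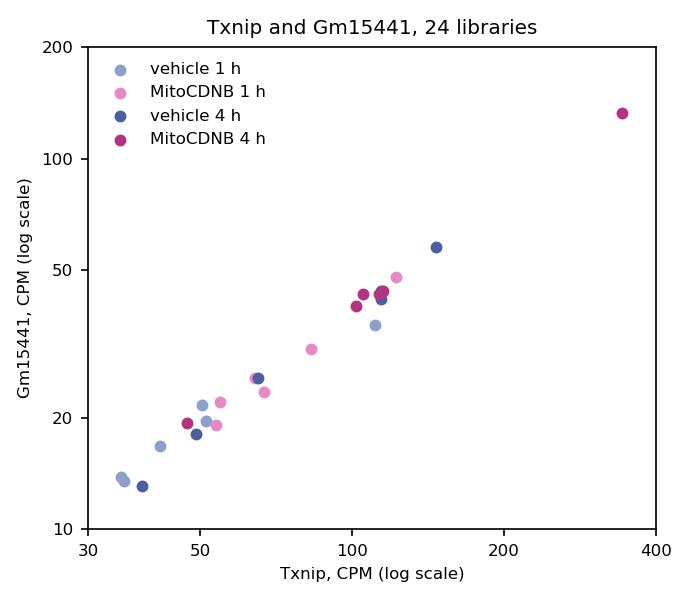
Level of Gm15441 (y axis, CPM, log scale) against that of Txnip (x axis, CPM, log scale), each library being a point in the colour of its group. The 24 points lie along a single line from 34.9 to 343 CPM of Txnip, with MitoCDNB 4 h replicate 2 alone at the top. Its lower end, up to 51.5 CPM, holds 5 of the 6 vehicle libraries of 1 h. Vehicle 4 h replicates 4 (49.1 CPM) and 6 (38.3 CPM) and MitoCDNB 4 h replicate 6 (47.2 CPM) lie there too.

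Among the glutaredoxins, Glrx (chr13:75839868-75850154, plus strand) codes for the cytosolic enzyme that removes glutathione from protein thiols. At 1 h its lowest, median and highest levels were 17.2, 22.6 and 24.6 CPM in vehicle and 16.2, 20.3 and 21.8 CPM in MitoCDNB. At 4 h they were 21.65, 25.02 and 29.95 CPM in vehicle and 25.7, 29.1 and 34.7 CPM in MitoCDNB. All 6 MitoCDNB libraries lay below the vehicle mean at 1 h (21.97 CPM) and all 6 lay above it at 4 h (25.68 CPM), while the groups overlapped at both times. The log2 fold change was -0.17 (-0.37 to 0.04; adjusted p in edgeR 0.435) at 1 h and 0.21 (0.003 to 0.41; unadjusted p 0.0474, adjusted p 0.341) at 4 h. The difference between these effects was 0.38 (0.08 to 0.67), with an unadjusted p of 0.0140 and an adjusted p of 0.155 in edgeR. In limma-voom with quality weights it was 0.49 with an adjusted p of 0.0291, and it was not called in the other 10 fits or in any of the 24 single omissions. At 1 h the log2 fold change was 0.02 within replicates 1 to 3 and -0.33 within replicates 4 to 6. In vehicle, 4 h against 1 h gave 0.23 (0.02 to 0.43; unadjusted p 0.0340, adjusted p 0.207 in edgeR).

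Glrx2 (chr1:143716338-143749676, plus strand), which codes for the mainly mitochondrial dithiol glutaredoxin, was among the steadiest genes of the table. Its biological coefficient of variation of 0.0782 was above that of 1.59% of tested genes. Levels over all 24 libraries ran from 10.2 to 13.2 CPM, with group medians of 11.6 and 10.8 CPM at 1 h and 11 and 10.9 CPM at 4 h for vehicle and MitoCDNB. The groups overlapped at both times, and the log2 fold change was -0.09 (-0.23 to 0.05) at 1 h and -0.03 (-0.16 to 0.11) at 4 h. The adjusted p in edgeR was 0.549 and 0.908.

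Glrx3 and Glrx5 are monothiol glutaredoxins that handle iron-sulfur clusters, in the cytosol and in mitochondria. Glrx3 (chr7:137437614-137468594, plus strand) had lowest, median and highest levels of 30.3, 33.5 and 35.7 CPM in vehicle and 28.5, 33.2 and 34.8 CPM in MitoCDNB at 1 h. At 4 h they were 27.9, 30.8 and 36.5 CPM in vehicle and 28.1, 31.0 and 32.9 CPM in MitoCDNB. The groups overlapped almost wholly. Its log2 fold change was -0.03 at both times, with 95% intervals of -0.17 to 0.10 at 1 h and -0.16 to 0.10 at 4 h (adjusted p in edgeR 0.870 and 0.896). Glrx5 (chr12:105032688-105042906, plus strand), whose loss in humans causes an anaemia, had 62.5, 87.2 and 92.4 CPM in vehicle and 73.3, 84.6 and 90.9 CPM in MitoCDNB at 1 h. At 4 h it had 85.4, 88.8 and 114 CPM in vehicle and 91.2, 98.6 and 112 CPM in MitoCDNB. The groups overlapped at both times, and its log2 fold change was 0.00 at 1 h (-0.18 to 0.17; adjusted p in edgeR 0.988) and 0.10 at 4 h (-0.08 to 0.27; adjusted p 0.676).

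Levels were compared between genes per kilobase of exonic bases in GENCODE M21, as the mean over the 24 libraries. Txn1 stood first at 146 ± 13.2 CPM per kb (SD over 24 libraries). Txnip followed at 31.3 ± 22.5, Glrx5 at 26.3 ± 3.21, Txnrd1 at 22.1 ± 1.83 and Txn2 at 19.9 ± 1.37 CPM per kb. Glrx stood at 17.7 ± 3.55, Txnrd2 at 9.26 ± 1.15, Glrx3 at 7.72 ± 0.561, Glrx2 at 2.50 ± 0.173 and Txnrd3 at 1.66 ± 0.293 CPM per kb. The cytosolic thioredoxin was thus well above all other members, and both cytosolic reductants of the pair Txn1 and Txnrd1 stood above their mitochondrial counterparts. Txn1 exceeded Txnip in 24 of 24 libraries, but Txnip exceeded Glrx5 in only 11 of 24. The order of Glrx5 over Txnrd1 held in 21, of Txnrd1 over Txn2 in 19 and of Txn2 over Glrx in 20 of 24 libraries. Glrx over Txnrd2, Glrx3 over Glrx2 and Glrx2 over Txnrd3 held in all 24, and Txnrd2 over Glrx3 in 23. The order depends on the length used. Per kilobase of the longest principal transcript, Txn2 moved to place 2 (37.9 ± 2.61 CPM per kb), above Txnrd1 (25.5 ± 2.11), and Glrx3 to place 6 (19 ± 1.38).

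By Pearson's r, but not by Spearman's rho, some members varied together between mice of a group. Of the 45 pairs of members, with each group centred on its mean in log2 CPM over the 24 libraries, 3 passed on Pearson's r and 0 on Spearman's rho after Benjamini-Hochberg adjustment of permutation p-values. These were Txn2 with Glrx3 (r 0.716, rho 0.601), Glrx with Glrx5 (r 0.692, rho 0.605) and Txn1 with Glrx5 (r 0.638, rho 0.563). The unadjusted permutation p on r was 0.00093, 0.00074 and 0.00067. The adjusted permutation p was 0.0139 on r and 0.0758 on rho for each of the 3. Without the 2 libraries farthest from the median, r was at least 0.532 in each of the 3. A single library, vehicle 4 h replicate 6, was the highest of the 24 in Txn1 (183 CPM), Txn2 (93.6), Glrx3 (36.5) and Glrx5 (114). All points share the library and its scaling, and the median r of the 45 pairs was 0.05.

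The other genes of these pathways were followed in 6 lists, each read beside the median over all tested genes, which was 0.00 at both times. Their counts stand beside those over all 13833 tested genes. There edgeR called 6.57% at 1 h, 0.824% at 4 h, 4.07% for the difference and 5.44% between the vehicle groups. The unadjusted p was under 0.05 for 2443, 1981, 2343 and 2712 of all tested genes, in that order. The clients of thioredoxin are the peroxiredoxins, the methionine sulfoxide reductases, ribonucleotide reductase and the kinase ASK1. Of 14 listed genes, all tested, edgeR called 0 at 1 h, 1 at 4 h, 0 for the difference and 0 between the vehicle groups. The unadjusted p was under 0.05 for 2, 2, 4 and 1 of them. DESeq2 and limma-voom made the same call at 4 h and none at 1 h or for the difference, and each called Map3k5, which codes for ASK1, between the vehicle groups. The median log2 fold change was 0.01 at 1 h and -0.01 at 4 h.

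Rrm2 was the gene of this list called at 4 h, and it rose. It was listed as coding for the regulatory subunit of ribonucleotide reductase. Its lowest, median and highest levels at 4 h were 4.75, 6.48 and 10.2 CPM in vehicle and 6.88, 11.5 and 17 CPM in MitoCDNB. The groups overlapped through vehicle replicate 1 (10.2 CPM) and MitoCDNB replicate 1 (6.88 CPM), while all 6 MitoCDNB libraries were above the vehicle mean. Rrm2 gave a log2 fold change of 0.76 (0.38 to 1.13; adjusted p 0.0458 in edgeR), and at 1 h it was 0.07 (adjusted p 0.907). The call was kept in 2 of 12 single omissions, those of replicate 1 of either group. It was lost without vehicle replicate 2 (0.0899), 3 (0.0852), 4 (0.0878), 5 (0.0960) or 6 (0.0658), and without MitoCDNB replicate 2 (0.105), 3 (0.0807), 4 (0.0717), 5 (0.0819) or 6 (0.0538), as adjusted p in edgeR. It was also lost without the count filter (0.0592) and in a fit of the 4 h groups alone (0.152). The client with the smallest p at 1 h was Prdx4, the peroxiredoxin of the endoplasmic reticulum, with a log2 fold change of 0.20 (adjusted p 0.228 in edgeR).

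The supply of NADPH and glutathione was followed in 15 genes, of which 14 were tested. At 1 h and at 4 h edgeR, DESeq2 and limma-voom each called 0. The unadjusted p in edgeR was under 0.05 for 1 and for 3 genes. The median log2 fold change of the 14 was 0.01 at 1 h and -0.01 at 4 h. All 3 tools called 1 gene for the difference between the times, Gclc, the catalytic subunit of the enzyme that starts glutathione synthesis. Its lowest, median and highest levels were 194, 226 and 268 CPM in vehicle and 206, 285 and 391 CPM in MitoCDNB at 1 h. At 4 h they were 118, 146 and 188 CPM in vehicle and 97.3, 111 and 137 CPM in MitoCDNB. The mean was above vehicle at 1 h and below it at 4 h, with overlapping groups at each time. The log2 fold change was 0.34 (0.07 to 0.62; adjusted p 0.156 in edgeR) at 1 h and -0.37 (adjusted p 0.182) at 4 h. The difference was -0.72 (-1.11 to -0.32; adjusted p 0.0308 in edgeR).

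That call of Gclc was kept in 15 of 24 single omissions. It was lost without vehicle replicate 2 (adjusted p in edgeR 0.0513) or 3 (0.0538) of 1 h, MitoCDNB replicate 5 (0.0569) or 6 (0.0567) of 1 h, vehicle replicate 2 (0.0592) or 5 (0.0578) of 4 h, and MitoCDNB replicate 1 (0.0530), 3 (0.0604) or 6 (0.0501) of 4 h. With 1 h replicates 1 to 3 alone the difference was -0.58 (0.240), and with replicates 4 to 6 alone it was -0.83 (0.0441). Gclc was also lower in vehicle at 4 h than at 1 h, with no overlap of the groups and a log2 fold change of -0.62 (adjusted p 0.00762 in edgeR). With 1 h replicates 1 to 3 alone this was -0.51 (adjusted p 0.0856), and with a term for replicates 4 to 6 it was -0.44 (0.0529). The supply gene with the smallest p at 4 h was Nadk2, the mitochondrial NAD kinase, with a log2 fold change of -0.18 (adjusted p 0.163 in edgeR) and all 6 MitoCDNB libraries below the vehicle mean of 110.8 CPM.

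Iron-sulfur cluster assembly, in which Glrx3 and Glrx5 take part, was followed in 27 genes, all tested. In edgeR 0 were called at 1 h, at 4 h and for the difference, with an unadjusted p under 0.05 for 2, 5 and 0 of them. DESeq2 also called none in these, and limma-voom called Fdx1 at 1 h. The median log2 fold change of the 27 was 0.02 at 1 h and 0.04 at 4 h. Fdx1, a mitochondrial ferredoxin, had the smallest p in edgeR at both times. Its level at 1 h ran from 54.7 to 65.9 CPM in vehicle and from 63.1 to 84.4 CPM in MitoCDNB. At 4 h it ran from 52.6 to 67.4 CPM in vehicle and from 55.2 to 94.1 CPM in MitoCDNB. Most MitoCDNB libraries were above the vehicle mean (6 of 6 at 1 h and 5 of 6 at 4 h), and the log2 fold change was 0.27 (adjusted p 0.106 in edgeR) and 0.29 (adjusted p 0.154). Between the vehicle groups edgeR called 1 gene, Mms19, a cytosolic targeting factor for iron-sulfur proteins, which was higher at 4 h by 0.38 on the log2 scale (15.7 ± 0.899 to 20.5 ± 2.48 CPM, SD, n = 6; adjusted p 0.0019). The vehicle groups did not overlap for it, and the call was kept in 12 of 12 single omissions and lost with 1 h replicates 1 to 3 alone (adjusted p 0.0625).

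The thioredoxin-fold relatives, chiefly the protein disulfide isomerases of the endoplasmic reticulum and the TXNDC and TMX proteins, numbered 32, of which 26 were tested. In edgeR 0 were called in all 4 comparisons, with an unadjusted p under 0.05 for 0, 1, 4 and 5 of them at 1 h, at 4 h, for the difference and between the vehicle groups. Their median log2 fold change was 0.04 at 1 h and -0.08 at 4 h. Pdia5, a protein disulfide isomerase, stood at 28.7 to 51.2 CPM in vehicle and 23.3 to 38.7 CPM in MitoCDNB at 4 h. All 6 MitoCDNB libraries lay below the vehicle mean of 39.1 CPM, although the groups overlapped. For Pdia5 the log2 fold change was -0.48 (-0.75 to -0.21), with an adjusted p of 0.0751 in edgeR, and both DESeq2 and limma-voom called Pdia5 lower at 4 h. For the difference between the times DESeq2 called none of the relatives and limma-voom called Pdia5. Between the vehicle groups DESeq2 called 2 relatives and limma-voom 3.

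Selenoprotein synthesis, on which the reductases depend for their selenocysteine, was followed in 12 genes, of which 11 were tested. In edgeR, DESeq2 and limma-voom 0 were called at 1 h, at 4 h and for the difference. The unadjusted p in edgeR was under 0.05 for 0 in each of the 3. The median log2 fold change of the 11 was 0.03 at 1 h and -0.002 at 4 h. Between the vehicle groups 0 passed in edgeR. The gene Scly alone had an unadjusted p under 0.05 there, which DESeq2 and limma-voom called lower at 4 h. Sephs1 had the smallest p at 4 h, with a log2 fold change of -0.13 (adjusted p 0.493 in edgeR).

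The alpha-arrestins, relatives of Txnip, and the MondoA factors numbered 8, of which 7 were tested. In edgeR, DESeq2 and limma-voom 0 were called at 1 h, at 4 h and for the difference. The unadjusted p in edgeR was under 0.05 for 0, 2 and 1. The median log2 fold change of the 7 was 0.04 at 1 h and 0.11 at 4 h. Between the vehicle groups, 4 h against 1 h, 5 of the 7 had an unadjusted p under 0.05 in edgeR. The median of the 7 there was -0.28, beside -0.002 over all genes. In that comparison edgeR called 1, Arrdc4, like Txnip a known target of MondoA and ChREBP. It was lower at 4 h, at 5.42 ± 1.49 against 8.68 ± 1.79 CPM (SD, n = 6), with a log2 fold change of -0.68 (-1.03 to -0.32; adjusted p 0.0206 in edgeR). The groups overlapped narrowly, since the lowest vehicle library of 1 h had 6.89 CPM and the highest of 4 h 6.91 CPM. The call was kept in 10 of 12 single omissions and lost without vehicle replicate 6 of 1 h (adjusted p 0.0644) or of 4 h (0.0532), in a fit of these groups alone (0.0647), with a term for 1 h replicates 4 to 6 (0.0697) and with 1 h replicates 1 to 3 (0.110) or 4 to 6 alone (0.104). DESeq2 called 2 and limma-voom 3 of the 7 lower in that comparison. The log2 fold change of Txnip there was 0.70, and its log2 CPM, centred by group, gave an r of -0.13 and a rho of 0.01 with Arrdc4 over the 24 libraries (permutation p 0.594 and 0.964). None of the 7 correlations of Txnip with these genes passed after Benjamini-Hochberg adjustment, the largest being 0.45.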

How the data were processed

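RNA was extracted with the PureLink RNA Mini Kit and the NEBNext Ultra RNA kit served for library preparation, per the labels' protocols. The values as deposited are raw counts, a column per library and a gene symbol per line. The build was mm10 and the tools named were HISAT2, Trim Galore, DESeq2 and CASAVA 1.8.4, per the submitters' processing notes. Which tool and annotation gave the counts is not given in the sources used here. Multi-mapped and overlapping reads are therefore uncertain. Replicates are mice per the labels (n = 6). The members and lists were chosen with earlier results of these data known.

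Genes were kept with filterByExpr (minimum count 10, minimum total 15), which left 13833 of 24421 genes. The 4 groups were fitted to all 24 libraries with TMM scaling and tested with the robust quasi-likelihood test of edgeR 4.0.16 in R 4.3.3, with Benjamini-Hochberg adjustment over all tested genes and a threshold of 0.05. Intervals are 95%, from the SE. All members were named. From each list, names were drawn from the called genes with the smallest p, or else the gene with the smallest p. Not all genes picked in this way are given. For a called member the 3 genes most like it were named. Krt23, Spp1, Gzma, Cps1, Kdr, Lyve1, Clec4g, Oit3, S100a8, S100a9, Snap25 and Gm15441, and genes called only by another tool, were chosen after their values were seen. The same holds for the alternatives tried for Rrm2, Gclc, Mms19 and Arrdc4.

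Alternatives were other size factors and count filters, DESeq2 1.42.0, limma-voom (limma 3.58.1) with quality weights, fits limited to the compared groups, a block for replicate number, a stricter threshold, single omissions, the 1 h replicate sets and a fit without the 2 libraries that lay apart. Lengths and overlaps are from GENCODE M21 and promoters from RefSeq GRCm38.p6. Overlaps with genes other than Gm15441 are not reported here.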

Additional observations from a re-analysis of the deposited data

Results flagged for a closer look

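In 8 of the 40 groups of 6 libraries formed by the 10 genes, the highest or lowest library lay farther from its nearest neighbour than Dixon's 95% limit for the share of the range, which chance alone passes in about 1 of 20 groups. Txn2 was lowest in vehicle 1 h replicate 2 (72.1 CPM, nearest 76.6). Txnrd2 was highest in vehicle 1 h replicate 4 (41.7 CPM, nearest 34.1). Txnrd3 was lowest in MitoCDNB 1 h replicate 1 (3.04 CPM, nearest 4.94) and highest in vehicle 4 h replicate 5 (6.86 CPM, nearest 5.16). Txnip was highest in vehicle 1 h replicate 4 (111 CPM, nearest 51.5) and in MitoCDNB 4 h replicate 2 (343 CPM, nearest 115). Glrx5 was lowest in vehicle 1 h replicate 3 (62.5 CPM, nearest 82.4) and highest in vehicle 4 h replicate 6 (114 CPM, nearest 95.9).

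Glrx is listed because all 6 MitoCDNB libraries lay below the vehicle mean at 1 h and all 6 lay above it at 4 h. The difference between the effects, 0.38 on the log2 scale, did not pass in edgeR (adjusted p 0.155).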

How the results depend on the processing

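The number of the 10 genes called at 4 h was 0 without the count filter, in the compared groups alone, without the 2 libraries that lay apart and at an adjusted p under 0.01, and 0 to 1 over single omissions. For the difference between times it was 1 in limma-voom. Over all genes, the count at 1 h (909) was 244 with replicates 1 to 3, 256 with 4 to 6 and 473 at 0.01, and 720 to 838 over single omissions. At 4 h (114) it was 348 in DESeq2, 224 in limma-voom, 18 in the compared groups alone, 247 without the 2 libraries, 19 at 0.01, and 63 to 412 over single omissions (412 without vehicle replicate 1). For the difference (563) it was 913 in limma-voom, 150 with 1 h replicates 1 to 3, 275 with 4 to 6, 231 at 0.01, and 439 to 696 over single omissions. Between vehicle groups (753) it was 415 in these groups alone, 177 and 309 with the 1 h replicate sets, 255 at 0.01, and 480 to 749 over single omissions.

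Some values changed sign on the log2 scale, none of them called. Not all of these were near 0 in the fit of all 24 libraries. There Glrx was -0.17, Txnrd3 0.12 and Txnrd2 0.10 at 1 h, and Txnip was 0.19 and Glrx5 0.10 for the difference. At 1 h, Glrx5 was 0.0043 with the replicate block, 0.00097 with a term for replicates 4 to 6 and 0.18 with replicates 1 to 3. With replicates 1 to 3, Txn2 was 0.011 and Glrx 0.016. With 4 to 6, Txn1 was -0.080, Txnrd2 -0.012 and Txnrd3 -0.014. For the difference, Txnip was -0.11 in limma-voom, -0.020 with the replicate block and -0.11 without the 2 libraries, Glrx3 was -0.0088 without them and Glrx5 -0.085 with replicates 1 to 3. Between vehicle groups, Txn1 was 0.018 with replicates 1 to 3 and Txn2 -0.00071 with 4 to 6. Single omissions gave, at 1 h, -0.076 to 0.031 for Glrx5 and -0.058 to 4.8e-05 for Glrx3; at 4 h, -0.052 to 0.0054 for Glrx2 and -0.062 to 0.018 for Glrx3. For the difference they gave -0.32 to 0.40 for Txnip and -0.029 to 0.052 for Glrx3, and between vehicle groups -0.043 to 0.049 for Txn2, -0.071 to 0.0055 for Glrx2 and -0.075 to 0.032 for Txn1. The cause was not tested.

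Same-numbered vehicle and MitoCDNB libraries did not deviate together in every pair (correlations -0.015, 0.032, 0.076, 0.077, 0.21 and -0.067 at 1 h; -0.21, -0.11, -0.066, 0.11, 0.27 and 0.20 at 4 h), so the numbers were taken as names. With the replicate block Txnrd1 at 4 h was -0.25 (adjusted p 0.0491) and Rrm2 0.75 (0.117). Depth limits Txnrd3 most, at 85 counts in its lowest library.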
